A study of Homo sapiens with 18 samples.

Results

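The G1 cyclins, the cyclin-dependent kinases (CDKs) they switch on and the inhibitors that hold those kinases back were followed through 10 genes, CCND1, CCND3, CCNE1, CCNE2, CDK2, CDK4, CDK6, CDKN1A, CDKN1B and CDKN2B. The probe sets were found by gene symbol. Every probe set that the platform's probe table ties to 1 of these symbols and to no other gene was taken, which gave 28 of the 49395 probe sets in the deposited table, 2 to 4 for each gene, and none was left out for a low signal. The arrays came from WiDr and HT29, 2 established lines from human colorectal tumours that carry an activating BRAF mutation. WiDr is generally held to derive from HT29. WiDr was sampled with vehicle, with the RAF kinase inhibitor AZ628, after transduction with a short hairpin RNA (shRNA) as control and after transduction with one that targets IKKα, which CHUK encodes, and HT29 was sampled with vehicle and with AZ628. Each of the 6 groups held 3 arrays. The labels used here state no dose or duration of AZ628, no number of hairpins and no separate cultures behind the arrays of a group, so a p-value here weighs a difference against array-to-array spread that may be only technical.

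In proliferating epithelial cells, growth signals passing through RAF, MEK and ERK raise cyclin D, which binds CDK4 and CDK6 and starts the phosphorylation of the retinoblastoma protein. Cyclin E with CDK2 completes that phosphorylation, E2F factors are released, and E2F in turn drives transcription of the cyclin E genes and of the enzymes of DNA synthesis. The INK4 inhibitor p15, product of CDKN2B, blocks CDK4 and CDK6, and the CIP/KIP inhibitors p21 and p27, products of CDKN1A and CDKN1B, bind CDK2 complexes. These arrays measured transcripts, whereas much of the control of p27 and of cyclins acts on the proteins.

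RefSeq start-site windows on GRCh38.p14, from 250 bases before to 50 after the annotated start, were found for 7 of the 10 genes. CCND1, CCNE2 and CDK2 were the others. Those of CDK4 and CCNE1, whose probe sets all fell with AZ628, and of CDKN1B and CDKN2B, whose brightest probe sets rose, are shown 5′ to 3′ on the gene's strand. Capitals mark matches on either strand to CACGTG, the E-box bound by MYC and related factors, and to GGGCGG, the GC box. The windows are chr12:57752261-57752560 for CDK4 (minus strand), chr19:29811741-29812040 for CCNE1 (plus strand), chr12:12717118-12717417 for CDKN1B (plus strand) and chr9:22009256-22009555 for CDKN2B (minus strand).
CDK4: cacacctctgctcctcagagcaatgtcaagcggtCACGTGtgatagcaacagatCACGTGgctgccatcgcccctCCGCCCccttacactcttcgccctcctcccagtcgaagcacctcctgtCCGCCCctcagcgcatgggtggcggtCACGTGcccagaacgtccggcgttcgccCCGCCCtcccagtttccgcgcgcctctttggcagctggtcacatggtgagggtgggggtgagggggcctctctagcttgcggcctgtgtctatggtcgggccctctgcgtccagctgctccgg
CCNE1: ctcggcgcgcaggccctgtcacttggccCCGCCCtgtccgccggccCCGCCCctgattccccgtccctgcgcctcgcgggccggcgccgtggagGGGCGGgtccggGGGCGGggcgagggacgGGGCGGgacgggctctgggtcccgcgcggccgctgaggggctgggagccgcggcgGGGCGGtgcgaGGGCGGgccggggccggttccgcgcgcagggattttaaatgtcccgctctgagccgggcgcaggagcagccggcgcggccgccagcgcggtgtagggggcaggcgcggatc
CDKN1B: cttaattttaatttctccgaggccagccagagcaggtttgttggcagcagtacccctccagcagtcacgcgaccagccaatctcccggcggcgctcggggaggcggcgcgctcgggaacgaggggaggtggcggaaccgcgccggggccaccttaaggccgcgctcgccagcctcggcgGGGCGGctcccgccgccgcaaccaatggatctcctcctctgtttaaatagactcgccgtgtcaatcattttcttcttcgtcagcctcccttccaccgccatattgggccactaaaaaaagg
CDKN2B: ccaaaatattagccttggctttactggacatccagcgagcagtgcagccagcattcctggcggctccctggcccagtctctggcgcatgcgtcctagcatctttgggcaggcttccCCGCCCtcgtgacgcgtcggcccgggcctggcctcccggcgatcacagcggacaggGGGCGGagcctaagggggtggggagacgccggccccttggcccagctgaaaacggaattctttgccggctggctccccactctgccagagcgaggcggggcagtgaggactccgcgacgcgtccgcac
The CDK4 window held 3 matches to CACGTG, which begin at -216, -196 and -101 from the start, and 3 to GGGCGG. The CCNE1 window held 7 matches to GGGCGG, CDKN2B 2 and CDKN1B 1. Over all 35116 windows of that length, 7.26% held CACGTG and 45.0% held GGGCGG. Searches for TTTNNCGC (the E2F motif, in 6.89% of windows), GTAAACA (forkhead, 3.42%), TGANTCA (AP-1, 7.71%) and CCGGAAG (ETS, 10.3%) found no match in these 4 windows. No 2 matches overlapped there. Among the windows not shown, CACGTG was found for CDK6, GTAAACA and CCGGAAG for CCND3, and GGGCGG for CDKN1A, CCND3 and CDK6. A match describes the letters and is not a measured binding site.

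Values are the authors' log2 signals, and a change is the difference of group means on that scale with the standard error (SE) of a limma fit to all 18 arrays. A probe set passed at an adjusted p under 0.05, Benjamini-Hochberg over 49293 non-control probe sets. Signals of different probe sets are not set against each other, since each probe set has its own response. Arrays of a group correlated at 0.9963 to 0.9981 over all probe sets, and arrays of different groups at 0.9580 to 0.9958. CHUK read 7.23 to 7.68 on the IKKα shRNA arrays and 9.45 to 9.78 on the control shRNA arrays, a fall of 2.12 (SE 0.13, adjusted p = 4.19e-10). It also passed as lower with AZ628, at -0.43 in WiDr and -0.37 in HT29. EPCAM, CDH1, KRT8 and KRT18, which mark epithelium, lay above the 98th percentile of probe sets. PTPRC (blood), DCN and COL3A1 (fibroblasts) lay below the 13th. The 8 epithelial markers listed averaged 10.81 to 10.87 on WiDr vehicle arrays. On these arrays the 5 measured blood markers averaged 6.69 to 6.78 and the 4 endothelial markers 5.41 to 5.52. PTPRC therefore does not stand for the whole blood list. Within the 7 fibroblast markers, LUM read 3.13 with WiDr vehicle, 3.49 with control shRNA, 6.32 with IKKα shRNA, 4.38 with AZ628 and, in HT29, 4.41 with vehicle and 6.18 with AZ628. The mean signal of that list was 4.21 to 4.25 on control shRNA arrays and 4.70 to 4.80 on IKKα shRNA arrays. LUM and COL3A1 were the 2 of those 7 markers that rose with IKKα shRNA. Any part of this in the results was not tested.

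**Figure D1:**
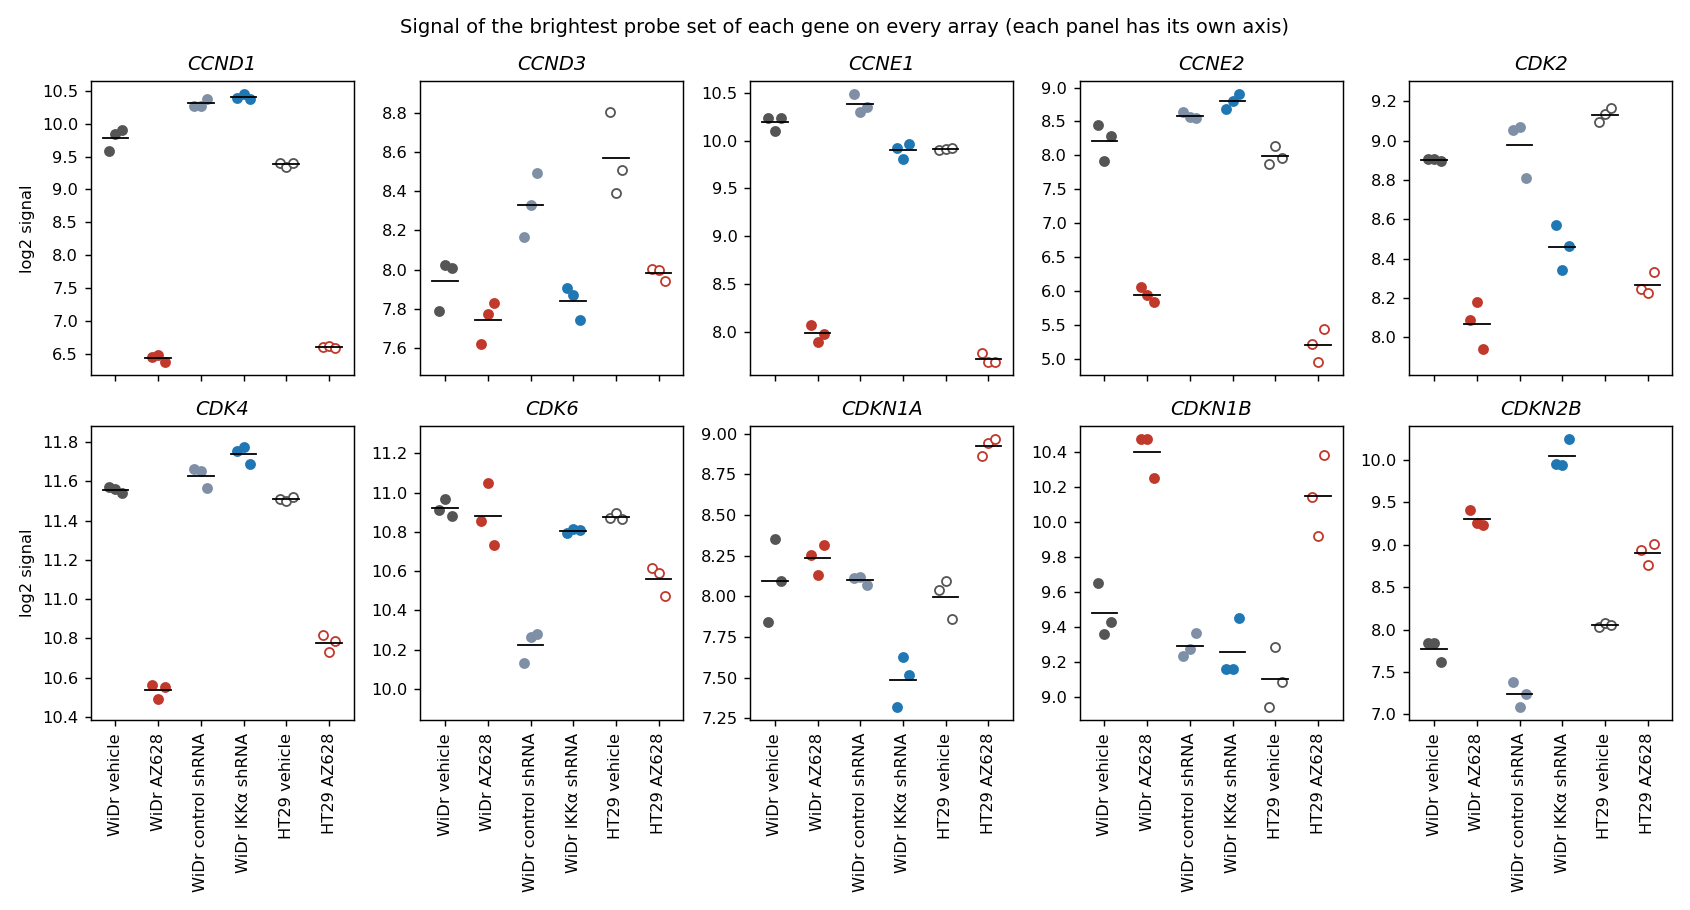
Log2 signal of the brightest probe set of each of the 10 genes on all 18 arrays; each panel has its own vertical axis, points are arrays (filled for WiDr, open for HT29) and bars are group means of 3. CCND1, CCNE1, CCNE2, CDK2 and CDK4 are lowest in the AZ628 groups, CDKN1B is highest there, CDKN2B is highest with IKKα shRNA, and CDK6 is lowest with control shRNA.

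The first question was what RAF inhibition did to these transcripts in each line. Cyclin D1 and both cyclin E genes fell steeply in WiDr and HT29, CDK4 and CDK2 fell by lesser amounts, and the inhibitors p27 and p15 rose. CDK6, cyclin D3 and p21 did not pass in WiDr and passed in HT29. In WiDr 4 of the 28 probe sets passed as higher and 15 as lower, 67.9% in all, where 39.3% of all probe sets passed, 20.2% as higher and 19% as lower. In HT29 6 passed as higher and 19 as lower, 89.3%, where 38.3% of all passed, 19.6% as higher and 18.7% as lower. The median change of the 28 was -0.69 in WiDr and -0.64 in HT29, beside medians of 0.00 over all probe sets in both. Changes of at least 2-fold were seen in 11 probe sets in WiDr and 7 in HT29, where 7.13% and 5.79% of all probe sets changed so much. Probe sets of 1 gene are not independent of each other. The genes followed here were also chosen with earlier results of these data known, so these shares are a description. A smaller share of cells in a phase of the cycle and less transcript per cell cannot be told apart on bulk arrays.

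Among the D cyclins, CCND1 (cyclin D1, the main ERK-responsive partner of CDK4 and CDK6) was read by 4 probe sets. The brightest, 11721255_at, read 9.58, 9.84 and 9.90 on the WiDr vehicle arrays and 6.46, 6.49 and 6.38 with AZ628. In HT29 it read 9.40, 9.34 and 9.40 with vehicle and 6.61, 6.62 and 6.60 with AZ628. Every treated array lay below every vehicle array, by a wide margin in either line. The change was -3.34 (SE 0.07, adjusted p = 4.54e-16), or 10.1-fold, in WiDr and -2.77 (SE 0.07, adjusted p = 8.78e-15), or 6.83-fold, in HT29. The other 3 CCND1 probe sets fell as well, by 2.67, 0.88 and 1.61 in WiDr and by 2.43, 0.79 and 0.74 in HT29. CCND3 (cyclin D3, which can serve the same kinases) behaved otherwise. Its brighter probe set read 7.79, 8.03 and 8.01 with vehicle and 7.62, 7.77 and 7.83 with AZ628 in WiDr, and these ranges overlap (-0.20, 95% interval -0.42 to 0.02, adjusted p = 0.152). In HT29 it read 8.80, 8.39 and 8.51 with vehicle and a mean of 7.98 ± 0.03 (SD, n = 3) with AZ628, with no overlap, a fall of 0.59 (SE 0.10, adjusted p = 0.000155). The dimmer CCND3 probe set, at the 10.5th percentile of mean signal, read 3.11 to 3.68 on the 18 arrays and passed in none of the 8 comparisons.

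Both cyclin E genes, whose products activate CDK2 at the G1 to S boundary, fell in all their probe sets. CCNE1 (11724407_s_at) read 10.24, 10.10 and 10.24 with vehicle and 8.07, 7.90 and 7.97 with AZ628 in WiDr. The same probe set read 9.90, 9.91 and 9.92, then 7.78, 7.68 and 7.68, in HT29. The falls were 2.21 (SE 0.07, adjusted p = 4.16e-14) and 2.20 (SE 0.07, adjusted p = 7.41e-14), 4.64-fold and 4.60-fold. The second CCNE1 probe set gave -1.26 and -1.28, again nearly equal in both lines. CCNE2 (11728300_at) read 8.44, 7.92 and 8.29 against 6.06, 5.94 and 5.83 in WiDr. In HT29 its arrays read 7.87, 8.14 and 7.96 with vehicle and 5.23, 4.96 and 5.44 with AZ628. No treated array reached a vehicle array, and the change was -2.27 (SE 0.13) in WiDr, 4.83-fold, and -2.78 (SE 0.13) in HT29, 6.89-fold. Its other probe set fell by 1.39 and by 1.77.

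Among the kinases, CDK4 (a partner of the D cyclins) fell in 4 of 4 probe sets and with little spread. The brightest, 11750512_x_at, read 11.57, 11.56 and 11.54 with vehicle and 10.56, 10.49 and 10.55 with AZ628 in WiDr. In HT29 it read 11.51, 11.50 and 11.52, then 10.82, 10.73 and 10.79. Changes of the 4 probe sets lay between -1.02 and -0.93 in WiDr and between -0.74 and -0.69 in HT29. CDK2, the kinase of cyclins E and A, fell in 3 of 3 probe sets. Its brightest, 11741208_a_at, read 8.90, 8.91 and 8.90 against 8.09, 8.18 and 7.94 in WiDr. In HT29 the readings were 9.10, 9.14 and 9.17 with vehicle and 8.25, 8.22 and 8.33 with AZ628. The groups stood apart in either line, and the falls were 0.84 (SE 0.08, adjusted p = 1.02e-07) and 0.87 (SE 0.08, adjusted p = 7.73e-08). CDK6, the second partner of the D cyclins, differed from CDK4. Its brightest probe set, 11723243_at, read 10.91, 10.97 and 10.88 with vehicle and 10.86, 11.05 and 10.73 with AZ628 in WiDr, where the arrays overlapped (-0.04, 95% interval -0.19 to 0.11, adjusted p = 0.732). None of the 4 CDK6 probe sets passed there by limma, and none had an unadjusted p under 0.05. In HT29 it read 10.87, 10.90 and 10.86, then 10.62, 10.59 and 10.47, a fall of 0.32 (SE 0.07, adjusted p = 0.00183), and 3 of the 4 probe sets passed. The dimmest of those 3 (-0.57, adjusted p = 0.0334) no longer passed without AZ628 replicate 1 or 2 or without vehicle replicate 1, with adjusted p up to 0.192.

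Among the inhibitors, CDKN1B (p27, which binds and blocks cyclin E and CDK2) rose in both probe sets and both lines. The brighter, 11717091_s_at, read 9.65, 9.36 and 9.43 with vehicle and 10.47, 10.48 and 10.26 with AZ628 in WiDr. In HT29 it went from 8.94, 9.28 and 9.08 to 10.15, 9.92 and 10.38. All treated arrays lay above the vehicle arrays, with rises of 0.92 (SE 0.12, adjusted p = 4.66e-06) and 1.05 (SE 0.12, adjusted p = 1.16e-06). CDKN2B (p15, the INK4 inhibitor of CDK4 and CDK6) read 7.84, 7.85 and 7.62 with vehicle and 9.41, 9.26 and 9.23 with AZ628 in WiDr on 11726508_a_at. The HT29 arrays read 8.03, 8.08 and 8.06 with vehicle and 8.93, 8.76 and 9.01 with AZ628. The groups were separate, and the rises were 1.53 (SE 0.10, adjusted p = 4.09e-10), 2.89-fold, and 0.85 (SE 0.10, adjusted p = 1.15e-06), 1.80-fold. A second CDKN2B probe set rose by 1.33 and 0.66, whereas the third, at the 26.3th percentile of mean signal, gave 0.10 and 0.14 and did not pass. CDKN1A (p21, a CIP/KIP inhibitor) read 7.84, 8.35 and 8.10 with vehicle and 8.26, 8.13 and 8.32 with AZ628 in WiDr on 11715388_s_at. These WiDr arrays overlapped (0.14, 95% interval -0.09 to 0.37, adjusted p = 0.359), and without vehicle replicate 2 the change was 0.27 (adjusted p = 0.0469). In HT29 it read 8.04, 8.09 and 7.86 with vehicle and 8.86, 8.94 and 8.97 with AZ628, a rise of 0.92 (SE 0.11, adjusted p = 1.28e-06). The second CDKN1A probe set gave 0.05 in WiDr (adjusted p = 0.673) and 0.79 in HT29 (adjusted p = 1.41e-07).

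**Figure D2:**
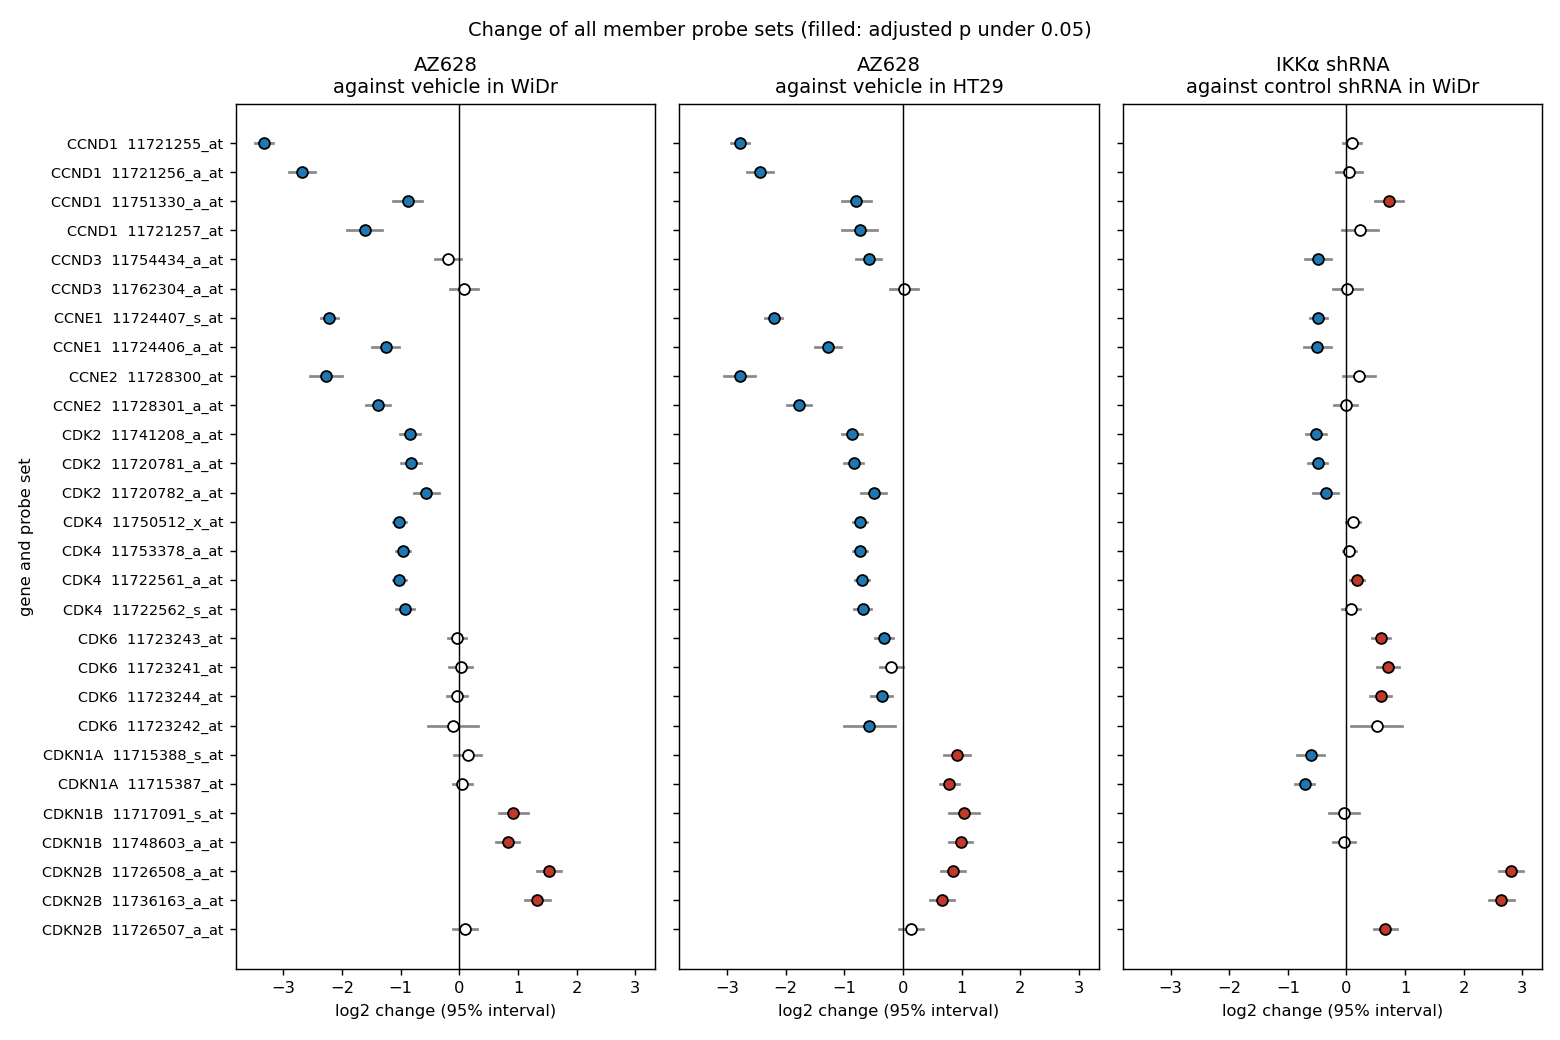
Log2 change of all 28 probe sets (rows, by gene and then by mean signal) for AZ628 in WiDr, AZ628 in HT29 and IKKα shRNA in WiDr; points are differences of group means, lines are 95% intervals and filled points passed. The CCND1, CCNE1, CCNE2, CDK2 and CDK4 rows lie left of 0 with AZ628 in both lines, while the upper CDKN2B rows lie right of 0 in all 3 panels, at 1.53, 0.85 and 2.81 for the brightest.

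The responses of the lines were then compared directly, as the AZ628 change in HT29 minus that in WiDr. CCND1 fell less in HT29, CDKN1A rose in HT29 and not measurably in WiDr, and CDKN2B rose less in HT29. Of the 28 probe sets 8 passed, 6 above 0 and 2 below, or 28.6%, where 5.51% of all probe sets passed, 2.43% above 0 and 3.08% below. For CDKN1A the difference was 0.79 (SE 0.15, adjusted p = 0.00358) on the brighter and 0.74 (SE 0.11, adjusted p = 0.000323) on the other probe set, and both kept passing whichever of the 12 arrays was left out. For CDKN2B the brightest and second probe sets differed by -0.68 (SE 0.14, adjusted p = 0.00517) and -0.67 (SE 0.14, adjusted p = 0.0061). On the brightest, WiDr and HT29 vehicle means were 7.77 and 8.05, beside 9.30 and 8.90 with AZ628. On the second, they were 7.38 and 7.99, beside 8.71 and 8.65 with AZ628. CCND1 differed by 0.56 (SE 0.10, adjusted p = 0.00219) on its brightest probe set and by 0.88 (adjusted p = 0.0136) on the dimmest. The other 2 gave 0.24 and 0.09 and did not pass. On the brightest, WiDr and HT29 means were 9.78 and 9.38 with vehicle and 6.44 and 6.61 with AZ628, so the lines also differed before treatment. CDK4 differed by 0.29 (SE 0.08, adjusted p = 0.0341) on the brightest, a call that was lost when any of 10 of the 12 arrays was left out (adjusted p up to 0.0925). No such difference passed for the E cyclins, CDK2, CDK6, CDKN1B or CCND3. The intervals spanned 0 for CCNE1 (0.01, 95% interval -0.19 to 0.22) and CDK2 (-0.03, 95% interval -0.27 to 0.21). They lay below 0 for CCNE2 (-0.51, 95% interval -0.89 to -0.13, adjusted p = 0.122) and CDK6 (-0.28, 95% interval -0.49 to -0.06, adjusted p = 0.158). The interval of the brighter CCND3 probe set also lay below 0 (-0.39, 95% interval -0.70 to -0.08, adjusted p = 0.165). A p above the threshold therefore does not show equal responses.

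**Figure D3:**
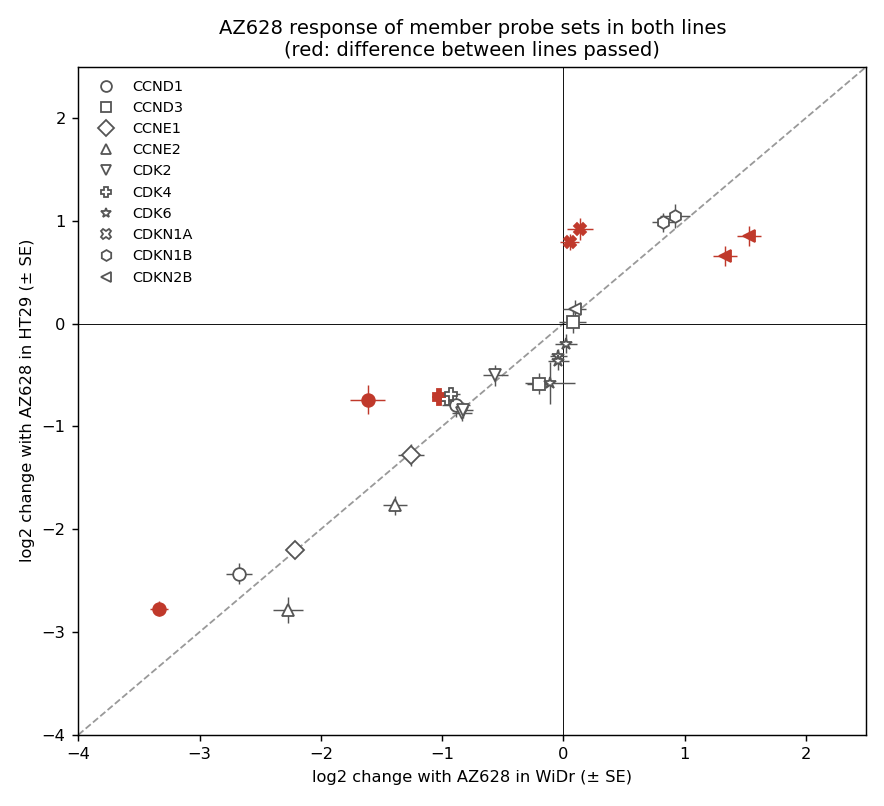
Log2 change with AZ628 in WiDr (horizontal) against HT29 (vertical) for the 28 probe sets, with SE bars, a symbol for each gene and the line of equal change dashed; red marks the 8 probe sets whose difference passed. CDKN1A lies above the dashed line at 0.14 and 0.92, CDKN2B below it at 1.53 and 0.85, and CCNE1 on it at -2.21 and -2.20.

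The second question was what knockdown of IKKα did to the same transcripts in WiDr. CDKN2B rose most, 7.01-fold against control shRNA. CDKN1A, CDK2, CCNE1 and CCND3 fell by 0.48 to 0.61 log2 units on their brightest probe sets, CDK6 rose against control shRNA, and CDKN1B, CDK4 and CCNE2 did not pass on theirs. Of the 28 probe sets 8 passed as higher and 8 as lower, 57.1%, where 29.7% of all probe sets passed, 14.2% as higher and 15.5% as lower. The median change was 0.06, beside 0.03 over all probe sets, and 2 probe sets changed at least 2-fold, where 3.13% of all did.

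CDKN2B read 7.38, 7.09 and 7.24 with control shRNA and 9.96, 9.94 and 10.24 with IKKα shRNA. The IKKα shRNA arrays were the highest of all 18 for this probe set, above the AZ628 arrays of both lines. The rise was 2.81 (SE 0.10, adjusted p = 3.92e-13), with 2.64 on the second probe set and 0.66 (adjusted p = 2.52e-05) on the dimmest. Against vehicle arrays it was 2.28 (SE 0.10, adjusted p = 9.35e-12), 4.85-fold, since control shRNA itself lay 0.53 below vehicle (adjusted p = 0.00141). CDKN2A, its neighbour on chromosome 9, which encodes p16 and p14ARF, differed by 0.24 (adjusted p = 0.0117) with IKKα shRNA, and with AZ628 by -0.03 (adjusted p = 0.811) in WiDr and -0.05 (adjusted p = 0.659) in HT29.

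CDKN1A read 8.11, 8.12 and 8.07 with control shRNA and 7.32, 7.63 and 7.52 with IKKα shRNA. The IKKα shRNA arrays were below all others of the series, and the fall of 0.61 (SE 0.11, adjusted p = 0.000213) was the same against vehicle (-0.61, adjusted p = 0.000244). CDK2 went from 9.05, 9.07 and 8.81 to 8.57, 8.34 and 8.47, a fall of 0.52 (SE 0.08, adjusted p = 6.26e-05) and of 0.44 against vehicle (adjusted p = 0.000319). CCNE1 went from 10.48, 10.30 and 10.35 to 9.92, 9.80 and 9.96, a fall of 0.48 (SE 0.07, adjusted p = 2.7e-05) and of 0.30 against vehicle (adjusted p = 0.00284). The groups did not overlap for either gene, and both stayed above their WiDr AZ628 arrays. On the dimmest CDK2 probe set the fall was 0.35 (adjusted p = 0.0127), a call lost without control shRNA replicate 1 or IKKα shRNA replicate 2. Against vehicle that probe set was lower by 0.22 and did not pass (adjusted p = 0.121). The second CCNE1 probe set fell by 0.50 (adjusted p = 0.00151). Against vehicle it was lower by 0.23 and did not pass (adjusted p = 0.121). For CCND1 the brightest probe set read 10.27, 10.27 and 10.38 with control shRNA and 10.38, 10.44 and 10.38 with IKKα shRNA (0.09, 95% interval -0.06 to 0.25, adjusted p = 0.381). Another CCND1 probe set, 11751330_a_at, rose by 0.72 (SE 0.12, adjusted p = 8.01e-05), with arrays at 6.07, 6.22 and 6.26 and then 6.90, 7.03 and 6.78. The probe sets of CCND1 therefore did not give 1 answer for this comparison. On its brightest probe set CCNE2 differed by 0.22, without overlap of the arrays (95% interval -0.05 to 0.48, adjusted p = 0.231). The other CCNE2 probe set differed by -0.02 (adjusted p = 0.928), and there the arrays overlapped. CDKN1B differed by -0.04 (95% interval -0.29 to 0.22, adjusted p = 0.868) and CDK4 by 0.11 (adjusted p = 0.142). A single CDK4 probe set of 4 passed, at 0.18 (adjusted p = 0.0183), and lost its call without control shRNA replicate 3 or IKKα shRNA replicate 2 (adjusted p up to 0.0842).

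On the brightest probe sets the call turned on the control for CDK6, CCND3, CCND1, CCNE2 and CDK4. CDK4 passed against vehicle at 0.18 (adjusted p = 0.016), beside 0.11 against control shRNA (adjusted p = 0.142). CDK6 read 10.91, 10.97 and 10.88 with vehicle, 10.13, 10.26 and 10.28 with control shRNA and 10.80, 10.81 and 10.81 with IKKα shRNA. The control shRNA arrays stood below all other arrays of the series. Against control shRNA the rise was 0.58 (SE 0.07, adjusted p = 5.98e-06), and against vehicle the difference was -0.11 (95% interval -0.27 to 0.04, adjusted p = 0.265). The fall from vehicle to control shRNA, 0.69 (SE 0.07, adjusted p = 7.51e-06), was repeated in 3 of the 4 CDK6 probe sets. CCND3 read 8.17, 8.33 and 8.49 with control shRNA and 7.91, 7.87 and 7.74 with IKKα shRNA, a fall of 0.49 (SE 0.10, adjusted p = 0.00131). Against vehicle it differed by -0.10 (adjusted p = 0.513), since control shRNA lay 0.39 above vehicle (adjusted p = 0.0172, and up to 0.0835 without vehicle replicate 1 or control shRNA replicate 3). On their brightest probe sets CCND1 and CCNE2 did not pass against control shRNA. With IKKα shRNA they were above vehicle by 0.62 (adjusted p = 2.68e-06) and 0.58 (adjusted p = 0.00163). Control shRNA itself lay above vehicle there, by 0.53 (adjusted p = 0.000109) for CCND1 and 0.37 (adjusted p = 0.0566, not passed) for CCNE2. On the second CCNE2 probe set it lay 0.43 above vehicle (adjusted p = 0.00585). Between control shRNA and vehicle, 10 of the 28 probe sets passed, 5 each way, or 35.7%, where 16.9% of all did, 9.92% above 0 and 6.93% below. Between IKKα shRNA and vehicle, 17 passed, 11 above 0 and 6 below, where 31.2% of all did, 16.1% above 0 and 15.1% below. These comparisons share arrays and are not separate evidence.

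**Figure D4:**
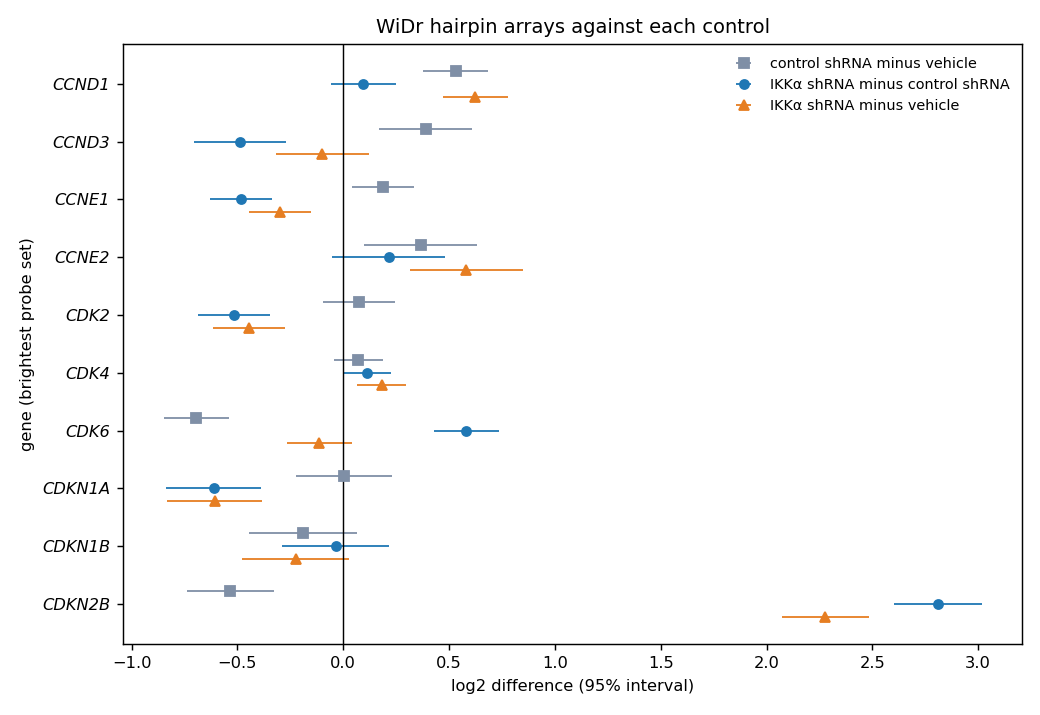
Log2 differences between the WiDr hairpin groups and their possible controls for the brightest probe set of each gene, with 95% intervals; squares are control shRNA minus vehicle, circles IKKα shRNA minus control shRNA and triangles IKKα shRNA minus vehicle. CDKN2B stands far right of 0 against either control (2.81 and 2.28), whereas the CDK6 circle (0.58) and triangle (-0.11) lie on opposite sides of 0.

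Set against each other within WiDr, each with its own control, the effects of IKKα shRNA and AZ628 differed in 24 of the 28 probe sets, 20 above 0 and 4 below, where 36.8% of all probe sets passed, 18% above 0 and 18.7% below. Over the brightest probe sets the largest differences were in cyclin genes, with 3.43 (SE 0.10, adjusted p = 4.04e-14) for CCND1, 2.49 (SE 0.18, adjusted p = 3.08e-09) for CCNE2 and 1.73 (SE 0.10, adjusted p = 1.51e-10) for CCNE1, followed by 1.28 (SE 0.14, adjusted p = 5.57e-07) for CDKN2B and 1.13 (SE 0.08) for CDK4. For CCND1, CCNE1, CCNE2 and CDK4, on their brightest probe sets, a fall with AZ628 stood beside a smaller or unpassed change with the hairpin. For CDKN2B both effects were rises and the hairpin's was larger. CDKN1B (-0.96, SE 0.17, adjusted p = 0.000173) and CDKN1A (-0.75, SE 0.15, adjusted p = 0.000587) differed the other way. The difference for CDK2 was small (0.32, adjusted p = 0.0365) and was lost when any of 8 of the 12 arrays was left out (adjusted p up to 0.108).

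Between the untreated lines 9 of the 28 probe sets passed, 5 higher in HT29 and 4 lower, or 32.1%, where 26.5% of all probe sets passed, 14.1% as higher and 12.4% as lower. CCND3 was higher in HT29 by 0.63 (SE 0.10, adjusted p = 0.000145), with 8.39 to 8.80 against 7.79 to 8.03. CCND1 was lower by 0.40 (SE 0.07, adjusted p = 0.000388) on its brightest probe set, and CDKN1B was lower by 0.38 and 0.46 (adjusted p = 0.0258 and 0.000888). The other CCND1 probe sets gave -0.24, -0.14 and -0.28 and did not pass. The brighter CCNE1 probe set was lower by 0.28 (adjusted p = 0.00494) and the second CDKN2B probe set higher by 0.60 (adjusted p = 0.000115), and both passed without any of the 6 arrays in turn. The other CCNE1 probe set was also lower by 0.28 but did not pass (adjusted p = 0.0666). On the brightest probe sets CDK4 differed by -0.05 (95% interval -0.16 to 0.07) and CDK6 by -0.04 (95% interval -0.20 to 0.11). The dimmest CDK6 probe set gave 0.46 (95% interval 0.03 to 0.90, adjusted p = 0.113), with all HT29 arrays above WiDr. Calls for CDK2 (0.23, adjusted p = 0.0428), for the brightest CDKN2B probe set (0.28, adjusted p = 0.0391) and for the brighter CDKN1B probe set were lost when single arrays were left out, with adjusted p up to 0.12, 0.191 and 0.129.

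On the brightest probe sets, the order of the 6 groups also differed between genes. CCND1 rose from WiDr with AZ628 to HT29 with AZ628, HT29 vehicle, WiDr vehicle, control shRNA and IKKα shRNA, and in that order only the hairpin groups met, at 10.38. CDKN2B ran from control shRNA through WiDr vehicle, HT29 vehicle, HT29 with AZ628 and WiDr with AZ628 to IKKα shRNA, with no overlap between neighbours. CDKN1A was lowest with IKKα shRNA and highest in HT29 with AZ628, and the WiDr vehicle arrays overlapped those of the other 3 groups between them. CDKN1B was high in the AZ628 groups, which overlapped each other, and the other 4 groups read 8.94 to 9.65 with overlaps. Other probe sets did not all keep these orders. On the second CDKN2B probe set the AZ628 groups overlapped, at 8.61 to 8.71 in HT29 and 8.60 to 8.87 in WiDr. On the dimmer CDKN1B probe set they were separate, at 8.71 to 9.01 in HT29 and 9.15 to 9.16 in WiDr. On CCND1 11751330_a_at the mean was lowest in HT29 with AZ628 (5.04), beside 5.09 in WiDr with AZ628.

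Other genes of the same step of the cycle were read through 1 probe set each, and 40 were measured. They came from lists drawn up by function, with earlier results of these data known. With AZ628, 27 of the 40 fell and 3 rose in WiDr, and the same counts were found in HT29, with medians of -0.64 and -0.50 beside 0.00 over all genes in both. Over all 18132 genes, read the same way, 20.5% fell and 22.8% rose in WiDr, and 20.4% fell and 21.8% rose in HT29. With IKKα shRNA 14 of the 40 fell and 5 rose, with a median of -0.07, where 18.1% of all genes fell and 14.9% rose. All 7 measured E2F-driven S phase genes fell with AZ628 in both lines, led by CDC6, a loader of the replicative helicase (-1.96 and -2.42). Of the 10 E2F and DP factors, 9 fell in each line, among them E2F7 (-1.89 and -1.94), a repressor that E2F itself induces, and E2F1 (-1.50 and -1.48). TFDP2 was the other, at 0.43 in WiDr, where it rose, and -0.03 in HT29. CDC25A, the phosphatase that activates CDK2, changed by -2.48 and -2.60, and SKP2, the ubiquitin ligase subunit that marks p27 for destruction, by -1.73 and -1.88. CDKN1C, which encodes the third CIP/KIP inhibitor p57, rose by 1.95 (SE 0.12) and 2.02 (SE 0.12). The retinoblastoma gene RB1 did not pass in either line (-0.15 and -0.21), while its relatives moved apart, RBL1 by -0.57 and -0.42 and RBL2 by 0.50 and 0.39.

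With IKKα shRNA the same lists were mixed. Against control shRNA, 14.9% of all 18132 genes rose and 18.1% fell, and the counts for these short lists stand beside those shares. Of the 8 genes of cyclin and inhibitor turnover 2 rose and 6 did not pass. Of the 3 cyclin genes CCND2, CCNA1 and CCNA2, 1 rose and 1 fell. CDKN1C fell by 0.86 and CDKN2D, which encodes the INK4 inhibitor p19, by 0.55, so that of the measured INK4 and CIP/KIP genes outside the 10 only CDKN2A rose. CCNH, the cyclin of the CDK-activating kinase, fell by 1.04, CDC25A by 0.70 and CCNA2, cyclin A2, by 0.79. Of the E2F-driven genes 5 of 7 fell, by up to 0.91 in TYMS, while CDC6 (0.00, adjusted p = 0.996) and RRM2 (0.07, adjusted p = 0.485) did not pass. The median of the 7 was -0.43 against control shRNA. Against vehicle it was -0.26, with 5 lower and 1 higher, and control shRNA itself was above vehicle in 2 of the 7. Over all probe sets, 15.1% were lower and 16.1% higher with IKKα shRNA against vehicle. Control shRNA was above vehicle in 9.92% of all probe sets. Of the E2F and DP factors 3 fell and E2F7 rose (0.42).

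**Figure D5:**
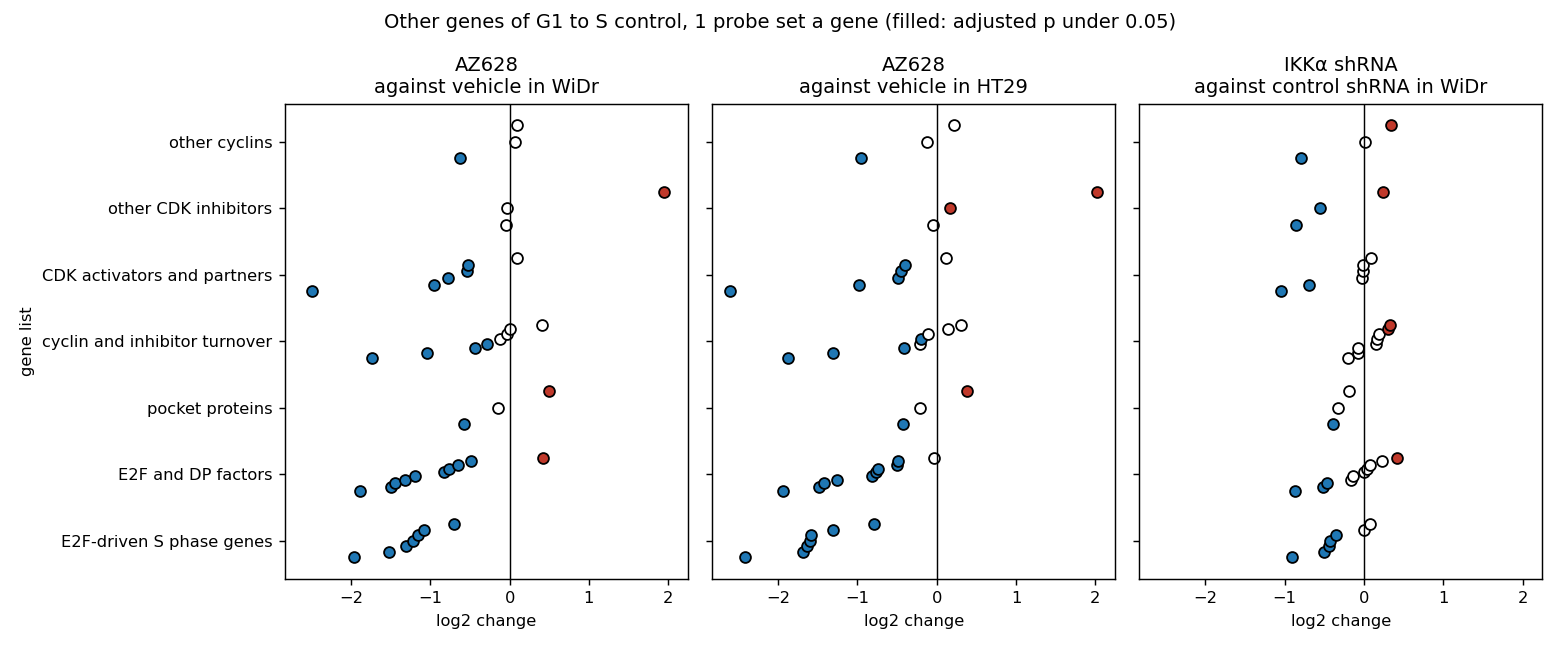
Log2 change of the 40 other genes of G1 to S control, grouped by list, for AZ628 in WiDr, AZ628 in HT29 and IKKα shRNA in WiDr; each point is 1 gene and filled points passed. The E2F-driven genes all lie left of 0 with AZ628 and CDKN1C lies far right, at 1.95 and 2.02, but left of 0 with IKKα shRNA.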

How the data were processed

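The 18 arrays were grouped by their titles. Per the submitters' processing notes, the authors made the deposited log2 values with RMA, and limma and R 3.0.2 are also named. RMA draws arrays to a common distribution, which hides a shift common to most genes and compresses low signals. The platform's probe table tied 44988 probe sets to 1 gene symbol, 1832 to several and 2473 to none, beside 102 controls.

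Here limma 3.58.1 in R 4.3.3 was fitted to 49293 probe sets with 6 group means (12 residual and 5.02 prior degrees of freedom), followed by eBayes and Benjamini-Hochberg adjustment within each of 8 contrasts. The fit was tested on simulated data. Figures used matplotlib 3.10.9. The number of arrays limits the precision. Members and lists were chosen with earlier results of these data known.

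Named were the 10 members, every probe set; up to 4 passing genes of each list, through the probe set with the highest mean; and the 3 genes whose signal correlated best with each member whose group means span at least 1 log2 unit. EPCAM, PTPRC and other cell type markers, and CHUK, were named as checks. RB1, CDKN2A, TFDP2 and RRM2 were named from the lists after their values were seen. Alternatives were another choice of probe set, filter, normalization, variance model, block, control or threshold, and leaving out each array. Same-numbered arrays of compared groups had correlations of deviations from -0.213 to 0.222, so the replicate numbers were not taken as pairs.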

Additional observations from a re-analysis of the deposited data

Results flagged for a closer look

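The AZ628 response differed between the lines, taken as HT29 minus WiDr, for 8 of the 28 probe sets by a direct test. The differences were 0.56 and 0.88 for 2 CCND1 probe sets (11721255_at and 11721257_at), 0.29 and 0.33 for 2 of CDK4 (11750512_x_at and 11722561_a_at), 0.79 and 0.74 for both of CDKN1A, and -0.68 and -0.67 for 2 of CDKN2B (11726508_a_at and 11736163_a_at). The second CDK4 value, with an adjusted p of 0.0174 by limma, no longer passed without HT29 AZ628 replicate 1 (adjusted p = 0.0568). The CCND1, CDKN1A and CDKN2B calls passed without any of the 12 arrays in turn.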

How the results depend on the processing

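Over 40 gene comparisons (10 genes, 4 contrasts), 686 recomputed values gave 664 with the same call, 14 that lost it, 7 that gained it and 1 that turned. Of the 664, 13 changed sign without passing either way. The turned value was CDK6 with vehicle in place of control shRNA (-0.11). With a 2-fold minimum, 3517, 2856, 1543 and 363 probe sets passed for AZ628 in WiDr, AZ628 in HT29, IKKα shRNA and the difference between lines, with 11, 7, 2 and 0 members; without that minimum the last were 8 members by limma, and the lower numbers follow from the minimum. With 1 probe set per gene, 8079, 7898, 6321 and 1667 of 18132 genes passed, with 7, 10, 6 and 4 of 10 members. With probe sets averaged these were 8024, 7820, 6291 and 1594, with 7, 10, 7 and 5 members. CCND1 then passed with IKKα shRNA (0.27, adjusted p = 0.00108) and CCNE2 for the difference between lines (-0.45, adjusted p = 0.026). Without probe sets marked _x_at, _s_at or _a_at, 3275, 3197, 2575 and 485 of 11889 passed, with 3, 7, 4 and 3 of the 8 member probe sets left, those of CCND1, CCNE2, CDK6 and CDKN1A. Without _x_at and _s_at alone, an alternative chosen after seeing the data, 12664, 12287, 9594 and 1763 of 34921 passed. In these settings fewer entries are tested. With the replicate number as a block (replicate block), 19150, 18655, 14353 and 2516 passed and the members' counts were 19, 25, 16 and 8, as without it; over all 8 contrasts it changed 2 of 224 member calls, CDK2 between the untreated lines (adjusted p = 0.0544) and CCNE1 between control shRNA and vehicle (adjusted p = 0.0485). The CDK4 difference between lines (0.29) was also lost without _x_at and _s_at probe sets (0.23, adjusted p = 0.157), with arrays centred on their medians (adjusted p = 0.0512) and with only the groups compared (adjusted p = 0.0704), and the cause was not tested. Dim probe sets, such as the third of CDKN2B, limit what their small changes show.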

Other observations

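Genes whose signal ran most nearly parallel to a member over the 18 arrays are given as a description. These arrays fall into 6 groups, so high correlations are common. CCND1 ran closest to ERVMER34-1, EXOSC7 and ITGB5 (Pearson r 0.996, 0.993 and 0.993). CCNE1 ran with POP1, UHRF1 and EXOSC9 (0.994, 0.993 and 0.993), and CCNE2 with the mitotic kinase gene CDK1, LARP1 and ABCE1 (0.994, 0.991 and 0.991). CDK4 ran with PPRC1, NUP93 and UTP4 (0.994, 0.993 and 0.993), and CDK2 with PAQR4, CSPG4 and PGP (0.979, 0.973 and 0.972).

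The inhibitors had other companions. CDKN2B ran with MAP2, MRAS and DDIT4, an inhibitor of mTORC1 (0.970, 0.966 and 0.958), CDKN1B with PCMTD1, DZIP3 and TET2 (0.971, 0.971 and 0.970), and CDKN1A with HES6, MED19 and DRC9 at lower values (0.934, 0.918 and 0.918). CCND3 and CDK6 spanned less than 1 log2 unit between group means and were not matched.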
